A study of Mus musculus with 22 samples.

Results

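Back skin of K14-DN-Clim transgenic mice was compared with that of wild-type littermates at postnatal day 6 (P6), when the first hair follicles are growing. The comparison used the 10 arrays of the 22 in the series whose titles place them at P6, 5 DN-CLIM and 5 WT, and all 12422 probe sets that are not array controls, of 12488. The mice were of strain CB6F1, and the transgene expresses DN-CLIM, a dominant-negative form of the CLIM cofactors, from the keratin 14 promoter. That promoter is active in basal keratinocytes of the epidermis and in the outer root sheath of the follicle, whereas the RNA came from whole back skin with its dermis, fat, muscle, vessels and nerves. The other 12 arrays, 3 per genotype both at P14 and at P23, the first resting phase of the follicle, were used for the spread and for comparison between ages. Per the design text the P6 groups came from up to 5 mice of each genotype, but no label ties an array to a single mouse, so p-values measure the spread between arrays.

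CLIM proteins, encoded by Ldb1 and Ldb2, are nuclear adaptors without DNA-binding activity of their own. They dimerise and bind the LIM domains of LIM-homeodomain transcription factors and of LIM-only proteins such as Lmo4, and they are stabilised by single-stranded DNA-binding proteins (Ssbp) and marked for degradation by the ubiquitin ligase Rlim. A dominant-negative CLIM keeps the part that binds LIM domains and lacks the part that dimerises, so it can occupy LIM factors without joining them into complexes. In skin, LIM factors and CLIM act in the follicle and in the epidermis.

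2 probe sets passed the threshold at P6, for Bnc1 and Sncg, and both were lower in DN-CLIM skin. Their promoters are shown because these were the only genes past the threshold, each as the 250 bases before the gene's start in the RefSeq annotation of GRCm38.p6, 5′ to 3′ on the minus strand, chr7:81992300-81992549 for Bnc1 and chr14:34374670-34374919 for Sncg. Capitals mark matches on either strand to TAATTA, a core bound by many LIM-homeodomain proteins, to GATA, or to the E-box CANNTG, motifs that LIM and CLIM complexes use in several tissues.
Bnc1: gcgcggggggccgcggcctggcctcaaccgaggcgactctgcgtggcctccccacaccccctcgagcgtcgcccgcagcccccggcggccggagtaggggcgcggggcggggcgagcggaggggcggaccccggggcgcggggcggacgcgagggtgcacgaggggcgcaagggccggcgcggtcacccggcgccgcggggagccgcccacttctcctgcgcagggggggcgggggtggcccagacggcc
Sncg: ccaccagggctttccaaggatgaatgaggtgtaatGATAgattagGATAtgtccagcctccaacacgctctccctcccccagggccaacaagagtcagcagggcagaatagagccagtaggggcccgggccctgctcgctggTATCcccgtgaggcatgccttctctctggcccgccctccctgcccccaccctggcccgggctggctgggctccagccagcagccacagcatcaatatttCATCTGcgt
The Bnc1 window held 0 matches to any of these motifs and was 83.6% G and C, against a median of 52.4% over 32851 promoter windows of the same length. The Sncg window held 3 matches to GATA, 1 to CANNTG and 0 to TAATTA. Over all windows 4.84% held TAATTA, 53.62% held GATA and 66.22% held CANNTG, so the letters found before Sncg are common ones. A match is a description of these letters and not a binding site.

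All values are log2 MAS5 signals unless a fold is named, and differences are DN-CLIM minus WT from limma over all 22 arrays with Benjamini-Hochberg adjustment over 6211 probe sets (4900 genes) and a threshold of 0.05. The median SD between P6 arrays was 0.195 in WT and 0.245 in DN-CLIM, above the 0.118 to 0.169 of the groups at P14 and P23. The P6 groups had 5 arrays and the later ones 3, and a median SD runs lower with fewer arrays. The estimate of the spread per probe set is shared by limma over all 6 groups. DN-CLIM replicate 5 stood apart, with a mean correlation of 0.923 with the rest of its group against 0.954 to 0.968 for the other 9 arrays, and it lay outside all 9 others at 48.0% of tested probe sets against 11.0% to 21.2% for each other array. Both Xist, transcribed in females, and Eif2s3y, a Y-linked gene, were above their midpoints on 6 of the 10 P6 arrays (WT replicates 1 to 4 and DN-CLIM replicates 2 and 5) and on 0 of the 12 later arrays. P6 arrays numbered 4 and 5 differed from those numbered 1 to 3 at 345 of 6211 probe sets over both genotypes (limma, adjusted p under 0.05). DN-CLIM replicate 5 is in the first set, so the count does not separate the numbering from that array. The titles name no batch, and the split follows the replicate number alone. Fits within arrays 4 and 5 compare 2 arrays per genotype, DN-CLIM replicate 5 among them. The skin label held against keratin 1 and loricrin, which read 14.07 or more on every P6 array. The hair keratin and dermal matrix lists hold only genes that passed the filter, so their means do not check the label. The probe sets of Krt14, Krt5 and Krt15, the basal keratins, were too dim to test, at the 19.0, 23.7 and 1.4 percentiles of mean signal, so they check neither the basal layer nor the transgene.

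Of 6211 probe sets, 0 were higher and 2 lower past the threshold, which is 0.0322%. At an unadjusted p under 0.05 there were 508, or 8.18%, of which 256 were higher and 252 lower. The 5 DN-CLIM arrays lay wholly above the 5 WT arrays at 28 probe sets (0.451%) and wholly below them at 31 (0.499%). Over all tested probe sets the median difference was -0.0065. Gene lists are described by their counts and by the median difference of their genes, followed by the range of that median with each P6 array left out in turn. The plot of all tested probe sets shows both calls well apart from the rest.

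**Figure D1:**
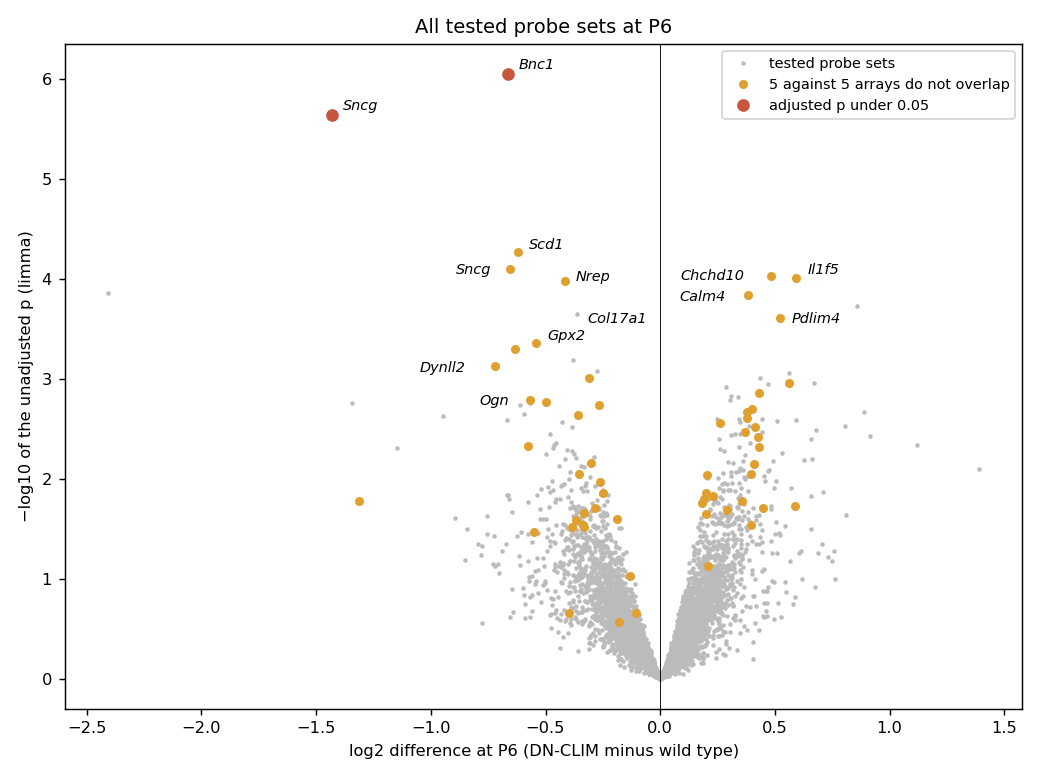
Log2 difference at P6 (x axis, DN-CLIM minus WT) against the negative log10 of limma's unadjusted p (y axis) for 6211 probe sets. The 2 red points, Bnc1 at -0.66 and Sncg at -1.43, passed the threshold, and the orange points are probe sets whose 5 DN-CLIM and 5 WT arrays did not overlap. The leftmost gray point is a probe set not paired with a single gene.

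Bnc1 encodes basonuclin 1, a zinc finger protein found in basal keratinocytes and hair matrix cells that binds the promoters of ribosomal RNA genes. Its signal was 9.12, 9.24, 9.28, 9.38 and 9.37 on the 5 WT arrays and 8.63, 8.83, 8.49, 8.56 and 8.55 on the 5 DN-CLIM arrays. Every DN-CLIM array lay below every WT array, as at 0.499% of all probe sets. Bnc1 fell 1.58-fold (difference -0.66, SE 0.10, adjusted p = 0.0055). In RNA of whole skin, fewer cells of a type and less RNA per cell cannot be told apart.

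The same probe set was also lower in DN-CLIM skin at the later ages. At P14 the WT arrays read 9.56, 9.77 and 9.62 and the DN-CLIM arrays 9.20, 9.19 and 9.24, a difference of -0.44 (adjusted p = 0.312). At P23 the WT arrays read 7.87, 7.99 and 8.16 and the DN-CLIM arrays 7.33, 7.20 and 7.50, and Bnc1 fell there as well (-0.67, adjusted p = 0.024), where 0.161% of probe sets passed. The groups did not overlap at any of the 3 ages. At P14 and P23 this carries less weight, since 3 arrays separate from 3 more easily than 5 from 5. The share of all probe sets that separate at those ages was not counted. The P6 call was lost where only the P6 arrays set the spread (adjusted p = 0.117). It was also lost where 3 classes of Xist and Eif2s3y signal were a covariate (0.0695) and within arrays 1 to 3 (-0.56, 0.124). The call held within arrays 4 and 5 (-0.82, 0.028), a smaller set that includes the outlying DN-CLIM replicate 5.

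Sncg encodes gamma-synuclein, a small cytosolic protein of peripheral nerves that is also made in fat and in some epithelia. At the probe set that passed, the WT arrays read 7.44, 8.06, 7.89, 8.27 and 8.53 and the DN-CLIM arrays 6.31, 6.96, 6.86, 5.87 and 7.04. No array of one genotype reached the other, and all 5 DN-CLIM values were under 7.67, the mean signal needed for testing. Sncg fell 2.70-fold there (-1.43, SE 0.23, adjusted p = 0.0071). A second Sncg probe set read 9.34 to 9.66 in WT and 8.53 to 9.13 in DN-CLIM, again without overlap, with a difference of -0.65 (SE 0.13) that did not pass (adjusted p = 0.092).

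Unlike Bnc1, Sncg gave differences of both signs at the later ages. The probe set that passed at P6 gave 0.30 at P14 (adjusted p = 0.934) and -0.13 at P23 (0.999), and the other gave 0.17 and -0.41 (0.944 and 0.909). The P6 call did not hold with only the P6 arrays (adjusted p = 0.315), with the 3 classes of sex-linked signal (0.0695) or within arrays 1 to 3 (-1.09, 0.266). It held within arrays 4 and 5 (-1.95, 0.019), the smaller set with DN-CLIM replicate 5. With any 1 P6 array left out both probe sets passed, with adjusted p up to 0.035 for Bnc1 and 0.043 for Sncg. Of 8 tested genes of the neuronal cytoskeleton and synapse, 4 were higher and 4 lower (median -0.03, range -0.15 to 0.10, and 0.097 without DN-CLIM replicate 5), with Sncb at -0.22, Tubb3 at 0.02 and Chga at 0.69. Of 8 Schwann cell and nerve genes 5 were higher and 3 lower (median 0.07, range 0.03 to 0.13). Mbp was at 0.35 and Egr2 at 0.30, whereas Dhh was at -0.36 on its brighter probe set and Sox10 at -0.13. Of 15 adipocyte genes 9 were lower (median -0.08, range -0.12 to -0.03), among them Lep at -0.44, Adipoq at -0.11 and Fabp4 at 0.04. No member of these lists passed, since Sncg is listed by its brighter probe set (-0.65, adjusted p = 0.092).

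**Figure D2:**
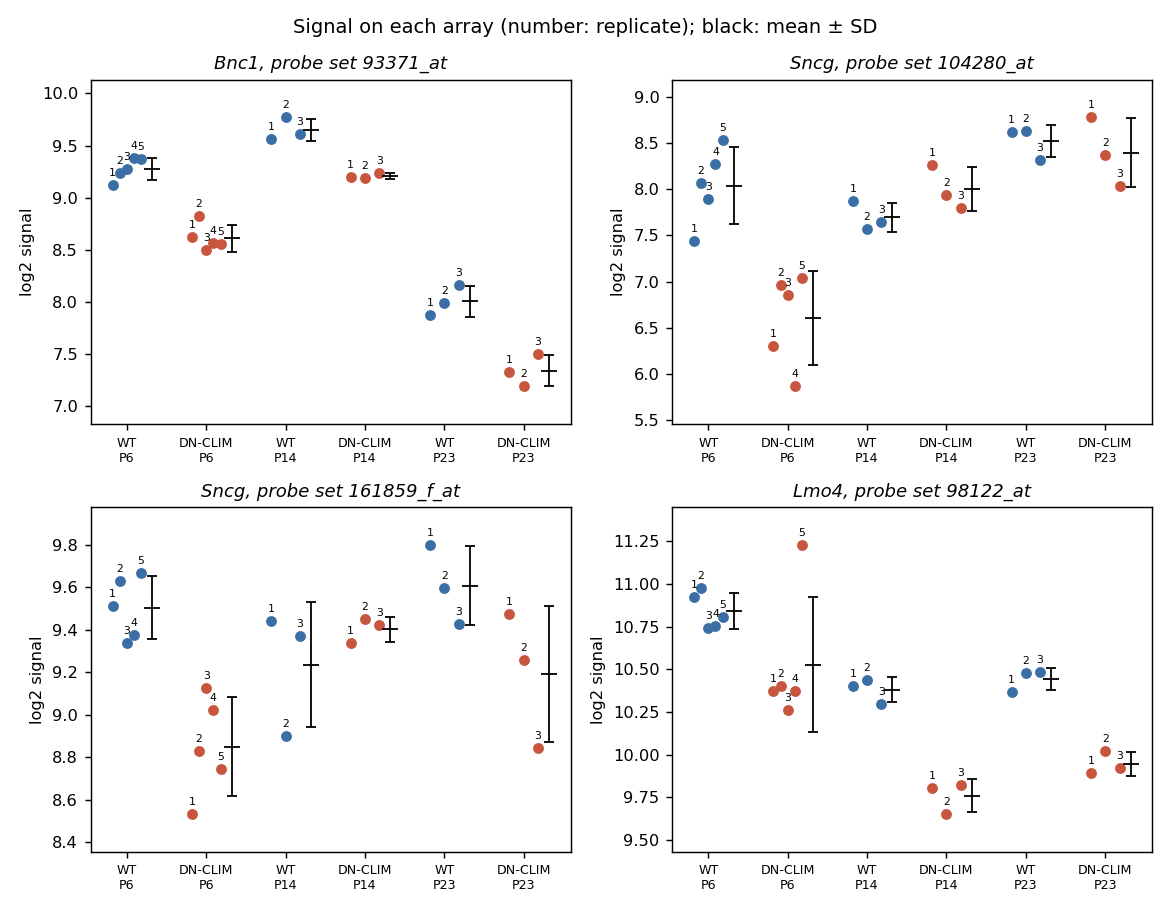
Log2 signal of Bnc1, both Sncg probe sets and Lmo4 on each of the 22 arrays (points, numbered by replicate), with the mean and SD of each group in black. At P6 the genotypes do not overlap for Bnc1 and Sncg, while DN-CLIM replicate 5 of Lmo4, at 11.23, lies above all WT arrays.

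The CLIM genes themselves and their partners did not differ past the threshold. Ldb1 read 9.88 to 10.21 in WT and 10.21 to 10.44 in DN-CLIM, the groups touching at one value, with a difference of 0.30 (SE 0.11, adjusted p = 0.534). Whether its probes also read the transgene is not known here, and the level therefore does not show the transgene. Ldb2 gave -0.09 (SE 0.10), with WT at 9.62 to 10.03 and DN-CLIM at 9.60 to 9.82. Of the 8 tested genes of the list of CLIM cofactors and LIM partners, 4 were higher and 4 lower (median -0.0074, range -0.05 to 0.04).

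Lmo4, a LIM-only protein of epidermis and follicle that binds CLIM, had 1 array far from the rest of its group. It read 10.93, 10.98, 10.74, 10.75 and 10.81 in WT and 10.37, 10.40, 10.26, 10.37 and 11.23 in DN-CLIM. DN-CLIM replicates 1 to 4 lay below all 5 WT arrays, and replicate 5 lay above all of them. The difference over the 5 arrays was -0.31 (SE 0.13, adjusted p = 0.56), and without replicate 5 it was -0.49 (adjusted p = 0.0043). Without other single arrays the adjusted p reached 0.684, and with only the P6 arrays it was 0.917. At P14 and P23, whose arrays do not include that one, the differences were -0.62 (adjusted p = 0.22) and -0.50 (0.603). The SE behind these p-values still takes in the spread at P6, and so DN-CLIM replicate 5. The SD in WT and DN-CLIM was 0.073 and 0.094 at P14 and 0.066 and 0.068 at P23. In DN-CLIM at P6 it was 0.395.

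The other partners did not pass either, with Lmo1 at -0.03 (SE 0.13), Lmo2 at 0.02 (0.18) on the brighter probe set and 0.26 (0.17) on the other, Ssbp2 at 0.0021 (0.09), Ssbp4 at 0.19 (0.14) and Rlim at -0.02 (0.16). The signs of Lmo1, Lmo2, Ssbp2 and Rlim turned under at least 1 alternative. LIM-homeodomain genes on the array, among them Lhx1, Lhx3, Lhx5, Lhx6, Lhx8, Lhx9, Isl1 and Lmx1b, were too dim to test.

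Basal keratinocytes are anchored by hemidesmosomes, in which integrin alpha 6 beta 4, collagen XVII, plectin and a laminin link keratin filaments to the basement membrane. Of 12 tested genes of the basal layer and hemidesmosome, 6 were higher and 6 lower (median 0.00014, range -0.02 to 0.05), and Bnc1 was the only one past the threshold. Col17a1 read 10.67, 10.83, 10.76, 10.82 and 10.79 in WT and 10.70, 10.33, 10.48, 10.18 and 10.37 in DN-CLIM. Its difference was -0.36 (SE 0.08, adjusted p = 0.126), with replicate 1 the only DN-CLIM array inside the WT range. Without that array, singled out by its value, it was -0.44 (adjusted p = 0.0195). Without other single arrays the adjusted p reached 0.295, and with only the P6 arrays it was 0.875. At P14 Col17a1 fell by 0.62 on the log2 scale (adjusted p = 0.0149, where 0.0644% of probe sets passed), with a difference of -0.48 at P23 (0.0859).

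The other genes of the list went both ways, and none but Bnc1 passed. Itgb4, the beta 4 integrin, read 9.52 to 9.99 in WT and 9.62 to 10.73 in DN-CLIM (0.51, SE 0.15, adjusted p = 0.343; 0.67 and 0.039 without DN-CLIM replicate 4, 0.39 and 0.635 without replicate 1). Plec, which encodes plectin, gave 0.89 (SE 0.26, adjusted p = 0.343), with DN-CLIM replicate 5 at 11.80 and the other 4 at 9.81 to 10.42 against 9.22 to 9.95 in WT, and 0.54 without replicate 5. Lamb3 was at 0.33, Itga3 at 0.16, Itga6 at 0.05 and Itgb1 at 0.03, whereas Cd44 was at -0.36, Lama3 at -0.08, Cd151 at -0.06 and Trp63, the master regulator of the basal layer, at -0.03. Of 16 basement membrane genes 10 were higher (median 0.06, range 0.004 to 0.07), with Lama2 at 0.37 (adjusted p = 0.519) and the nephronectin gene Npnt at -0.28 (0.606). Npnt passed as lower at P23 (-0.94, adjusted p = 0.017).

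Genes of the suprabasal epidermis included several with higher readings on DN-CLIM arrays, none of which passed. Il1f5, the gene of an antagonist of the interleukin 36 receptor in keratinocytes, read 9.80, 9.54, 9.35, 9.76 and 9.78 in WT and 10.24, 9.95, 10.32, 10.43 and 10.27 in DN-CLIM (0.59, SE 0.12, adjusted p = 0.092). Calm4, a calcium-binding protein of differentiating keratinocytes, read 14.62, 14.75, 14.77, 14.70 and 14.93 in WT and 15.36, 14.97, 15.01, 15.29 and 15.07 in DN-CLIM (0.38, SE 0.08, adjusted p = 0.101). Krt1, the first suprabasal keratin, read 14.15 to 14.32 in WT and 14.43 to 15.02 in DN-CLIM (0.41, adjusted p = 0.48). In these 3 genes the groups did not overlap, a pattern found at 0.451% of probe sets in this direction.

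Lor (loricrin, the main protein of the cornified envelope) was at 0.43, Krtdap at 0.31, Flg (filaggrin) at 0.25 and Krt10 at 0.17, with Ivl (involucrin) at -0.51 and Tgm3, a transglutaminase, at -0.41. Of 17 epidermal differentiation genes 10 were higher and 7 lower, with 0 past the threshold (median 0.12, range 0.04 to 0.20, against -0.0047 over all 4900 genes, of which 48.9% were higher). The mean level of the list was 11.67 on DN-CLIM replicate 5 and 12.03 to 12.25 on the other 4 DN-CLIM arrays, against 11.82 to 12.13 in WT. Its median was 0.27 within arrays 1 to 3, -0.01 within arrays 4 and 5, and -0.0052 after quantile normalization. At the later ages the list had medians of -0.07 (P14) and 0.20 (P23).

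Crct1, a gene of the epidermal differentiation complex, read 14.16 to 14.44 in WT and 14.33 to 15.13 in DN-CLIM on its brighter probe set (0.27), and on the dimmer one 12.63 to 13.01 and 13.06 to 13.94 without overlap (0.41, adjusted p = 0.349). Of 23 desmosome and cell junction genes 12 were higher and 11 lower (median 0.04, range -0.04 to 0.04, and -0.02 without DN-CLIM replicate 5). Gjb5, a gap junction protein, read 9.88 to 10.03 in WT and 9.48 to 9.82 in DN-CLIM (-0.27, adjusted p = 0.333), without overlap. Of 19 keratinocyte stress response genes 11 were higher and 8 lower (median 0.05, range -0.0032 to 0.10). Krt6b was at 0.31 and Sprr1a, an envelope precursor, at 0.22 (adjusted p = 0.701). Krt6a was at -0.04, Sprr2h at -0.41 and Sprr2i at -0.21. Sprr1a passed as higher at P23 (1.08, adjusted p = 0.009), and the list's median there was 0.40.

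Of 16 epidermal transcription factors 14 were higher and 2 lower (median 0.06, range 0.04 to 0.11), and Bnc1 fell, the only member past the threshold. Klf4, a factor of barrier formation, was at 0.21 (adjusted p = 0.606) and Elf3, an Ets factor of differentiating epithelium, at 0.71 (SE 0.26, adjusted p = 0.534), with WT at 6.92 to 8.70 and DN-CLIM at 7.86 to 8.89. Gpx2, an epithelial glutathione peroxidase, read 8.68 to 8.88 in WT and 7.80 to 8.47 in DN-CLIM (-0.54, SE 0.13, adjusted p = 0.21), without overlap.

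**Figure D3:**
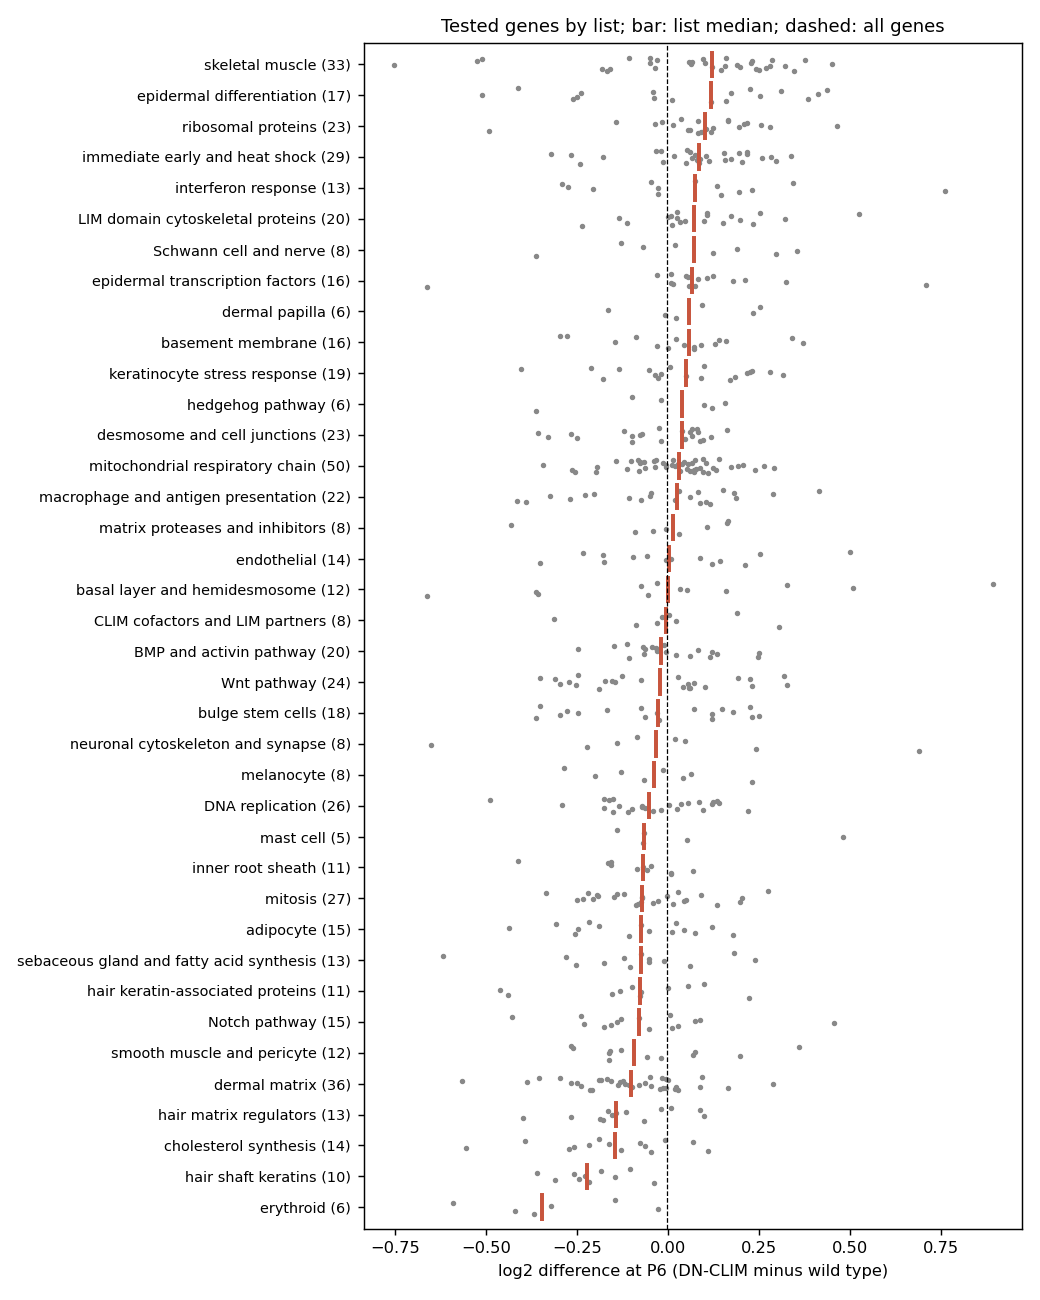
Log2 difference at P6 (x axis, DN-CLIM minus WT) of each tested gene (points, 1 probe set per gene) in the lists with 5 or more tested genes, ordered by the list median (red bar), with the median of all 4900 genes dashed. The medians run from -0.35 (erythroid) to 0.12 (skeletal muscle). In most lists single genes lie on both sides of 0.

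At P6 the hair follicles are in full growth and make the keratins and keratin-associated proteins of the shaft. All 10 tested hair shaft keratins were lower in DN-CLIM skin, with 0 past the threshold (median -0.22, range -0.28 to -0.17, where 51.1% of all genes were lower). Krt83 read 13.50, 13.49, 13.07, 13.74 and 13.97 in WT and 12.74, 13.23, 13.33, 13.08 and 13.57 in DN-CLIM (-0.36, adjusted p = 0.56). Krt33b was at -0.31, Krt81 at -0.26 and Krt31 at -0.04. The mean level of the 10 was 12.67 to 13.29 on WT arrays and 12.57 to 13.03 on DN-CLIM arrays, so the groups overlapped. These genes share the shaft as their source and were not separate evidence of one another.

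Of 11 keratin-associated protein genes 8 were lower (median -0.08, range -0.15 to -0.03), with Krtap5-4 at -0.46 (adjusted p = 0.413) and Krtap14 at -0.44 (0.489). Of 11 inner root sheath genes 8 were lower as well (median -0.07, range -0.14 to -0.02, with -0.14 without DN-CLIM replicate 5 and -0.017 without replicate 3), led by Tgm3, with Tchh (trichohyalin) at -0.16 and Krt71 at -0.09. Of 13 regulators of the hair matrix 10 were lower, with 0 past the threshold (median -0.14, range -0.17 to -0.10). The mean level of these 13 was 9.36 to 9.53 in WT and 9.27 to 9.32 in DN-CLIM, without overlap between groups. Among them Foxn1, the nude gene, read 9.53, 9.21, 9.13, 9.19 and 9.13 in WT and 8.87, 9.04, 8.53, 8.89 and 8.86 in DN-CLIM (-0.40, SE 0.32, adjusted p = 0.75), and Dlx2 read 9.14 to 9.34 and 8.95 to 9.12 (-0.18, adjusted p = 0.789). Both were named after their values were seen, as the 2 regulators whose groups did not overlap, as at 0.499% of all probe sets in this direction. The SE of Foxn1 also takes in its spread at P23, where the signal was low. There it read 5.73 in WT (SD 1.13) and 5.32 in DN-CLIM (SD 1.04). Dlx3 (-0.19), Lef1 (-0.16), Msx2 (-0.12) and Shh (-0.02) overlapped between groups.

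Of 18 bulge stem cell markers 10 were lower and 8 higher (median -0.03, range -0.07 to 0.01), led by Col17a1, with Tcf7l2 at -0.35 (adjusted p = 0.506), Cd34 at 0.12 and Nfatc1 at 0.18. Fzd2, a Wnt receptor, was at -0.30 (adjusted p = 0.56). Dermal papilla genes were higher in 4 of 6 (median 0.06, range 0.02 to 0.12), and of 8 melanocyte genes 5 were lower (median -0.04, range -0.13 to 0.0081), with Dct at 0.23 and Tyrp1 at -0.29.

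**Figure D4:**
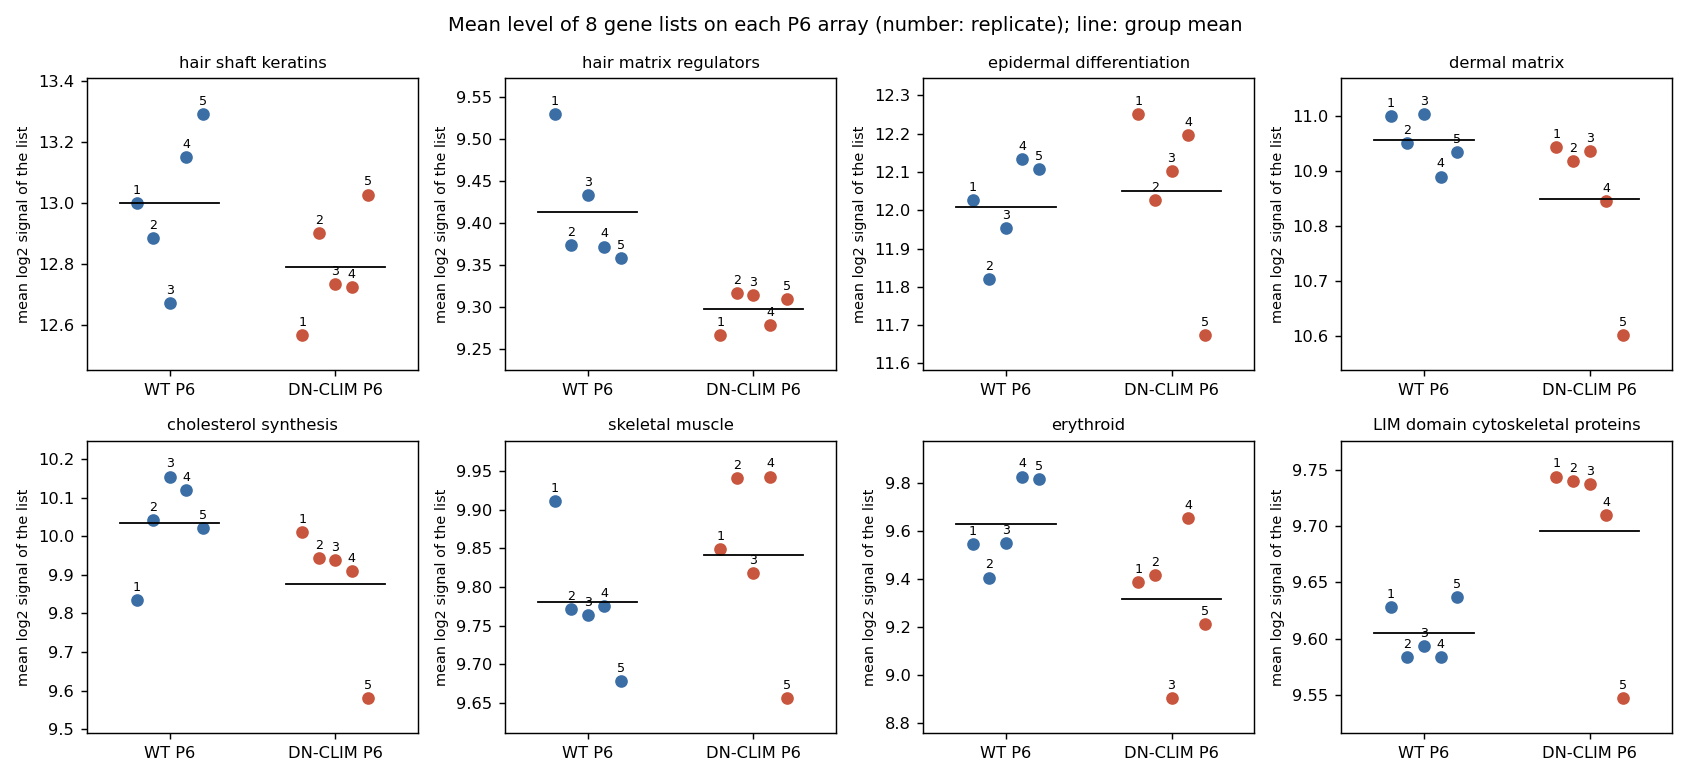
Mean log2 signal (y axis) of the tested genes in 8 lists on each P6 array (points, numbered by replicate), with the group mean as a line. DN-CLIM replicate 5 is the lowest array for epidermal differentiation, dermal matrix, cholesterol synthesis, skeletal muscle and LIM domain cytoskeletal proteins, and hair matrix regulators are the only list of the 8 whose genotypes do not overlap.

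Scd1 encodes stearoyl-CoA desaturase 1, which makes monounsaturated fatty acids in sebaceous glands and fat. It read 12.94, 12.99, 13.19, 13.19 and 13.10 in WT and 12.52, 12.38, 12.53, 12.46 and 12.42 in DN-CLIM. The groups lay apart, and the difference of -0.62 (1.54-fold, SE 0.12) did not pass (adjusted p = 0.092). With only the P6 arrays it was the one probe set that passed (adjusted p = 0.0238). A second Scd1 probe set gave -0.35 (SE 0.18, adjusted p = 0.649), with WT at 11.96 to 12.98 and DN-CLIM at 11.65 to 12.27. At P14 and P23 the first gave 0.07 and -0.13.

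Of 13 genes of the sebaceous gland and fatty acid synthesis 10 were lower and 3 higher (median -0.08, range -0.10 to -0.03), with Fasn at -0.01, Elovl6 at -0.18 and Srebf1, the transcription factor of fatty acid synthesis, at 0.18 (adjusted p = 0.662). Of 14 cholesterol synthesis genes 12 were lower (median -0.15, range -0.20 to -0.09), and here 1 array weighed heavily. Fdps, farnesyl diphosphate synthase, read 12.32 to 12.63 in WT and 12.35 to 12.51 on DN-CLIM replicates 1 to 4, with replicate 5 at 9.92. Its difference was -0.56 with that array and -0.05 without it. The list's median was -0.09 without replicate 5 and 0.0081 within arrays 1 to 3. Nsdhl was at -0.39 (-0.20 without replicate 5) and Hmgcs1 at -0.26 (-0.33). Fdps and Nsdhl are described on their probe sets with the highest mean signal. Other tested probe sets of these genes are not given here.

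In the dermis, 29 of 36 matrix genes were lower and 7 higher, with 0 past the threshold (median -0.10, range -0.13 to -0.03, and -0.03 without DN-CLIM replicate 5). The mean level of the list was 10.60 on replicate 5, 10.85 to 10.94 on the other DN-CLIM arrays and 10.89 to 11.00 in WT. Ogn, the small leucine-rich proteoglycan osteoglycin, read 8.61, 8.48, 8.57, 8.56 and 8.53 in WT and 7.67, 8.25, 8.06, 7.97 and 7.96 in DN-CLIM (-0.57, SE 0.16, adjusted p = 0.333), without overlap. A second Ogn probe set gave -0.38 with overlapping groups, and 0.67 at P14 and -0.67 at P23. Lum (lumican) was at -0.25, Mfap4 at -0.39, Tnc at -0.36 and Col1a1 and Col3a1, the main fibrillar collagens, at 0.02 and 0.16. Fbln2 was at 0.29.

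Nrep, a small protein of regenerating neurons and of fibroblasts, read 11.99, 11.84, 11.76, 12.00 and 11.90 in WT and 11.49, 11.59, 11.66, 11.46 and 11.22 in DN-CLIM. Each DN-CLIM array lay below each WT array, with a difference of -0.42 (SE 0.09, adjusted p = 0.092), and the values at P14 and P23 were -0.30 and -0.18. Dynll2, a dynein light chain, read 10.19 to 10.61 and 8.90 to 10.16 without overlap (-0.72, adjusted p = 0.29), but its second probe set gave -0.03. Of 8 matrix proteases and inhibitors 4 were higher and 4 lower (median 0.01, range -0.02 to 0.06), with Timp1 at -0.43.

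Back skin includes the thin panniculus muscle. Of 33 tested skeletal muscle genes 22 were higher and 11 lower (median 0.12, range 0.07 to 0.20, with 0.20 without DN-CLIM replicate 5 and 0.07 without replicate 2), with 0 past the threshold. The mean level of the list was 9.66 on DN-CLIM replicate 5, 9.82 to 9.94 on the other 4 and 9.68 to 9.91 in WT. Myh8, the perinatal myosin heavy chain, read 10.33, 10.36, 10.39, 10.61 and 10.51 in WT and 10.93, 11.01, 10.62, 10.84 and 11.06 in DN-CLIM (0.45, SE 0.18, adjusted p = 0.56), without overlap. Acta1, skeletal actin, was at 0.35 (adjusted p = 0.371).

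Atp2a1, the calcium pump of fast muscle, was at 0.25 on the brighter probe set and at 0.56 (adjusted p = 0.301) on the other, which did not overlap between groups. Genes of the adult fast fibre went both ways, with Myh4, a fast myosin, at -0.75 (SE 0.31, adjusted p = 0.56) and Pvalb (parvalbumin, named after its value was seen) at -0.53 (0.561), but the fast myosin Myh1 at 0.19 and the fast troponins Tnnc2 at 0.28, Tnnt3 at 0.16 and Tnni2 at 0.10. Ckm was at -0.04. The muscle list had medians of -0.12 at P14 and -0.07 at P23.

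LIM domains also occur in proteins of the actin cytoskeleton, which are not CLIM partners in the nucleus. Of 20 such genes 17 were higher and 3 lower (median 0.07, range 0.05 to 0.12), and the mean level was 9.71 to 9.74 on DN-CLIM replicates 1 to 4, 9.55 on replicate 5 and 9.58 to 9.64 in WT. Pdlim4 (RIL), an actin-associated PDZ and LIM protein, read 8.32, 8.50, 7.96, 8.22 and 8.39 in WT and 8.91, 8.90, 8.64, 8.68 and 8.88 in DN-CLIM. The groups did not overlap, and the difference of 0.52 (SE 0.12) did not pass (adjusted p = 0.126), with 0.41 at P14 and 0.36 at P23. Ldb3, a Z-disc protein that is also on the muscle list, was at 0.32 (adjusted p = 0.561). Lasp1 was at 0.20 on its brighter probe set and at -0.17 on the other.

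Among mitochondrial genes, Chchd10, a protein of the intermembrane space abundant in muscle, read 10.50, 10.56, 10.43, 10.70 and 10.09 in WT and 10.97, 10.80, 10.95, 10.81 and 11.15 in DN-CLIM (0.48, SE 0.10, adjusted p = 0.092). Eci1, an isomerase of fatty acid oxidation, read 9.17 to 9.66 and 9.74 to 10.05 (0.43, adjusted p = 0.333). Neither overlapped between groups, and the values of both at P14 and P23 lay between -0.17 and 0.09. Of 50 respiratory chain genes 29 were higher and 21 lower (median 0.03, range -0.04 to 0.07).

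**Figure D5:**
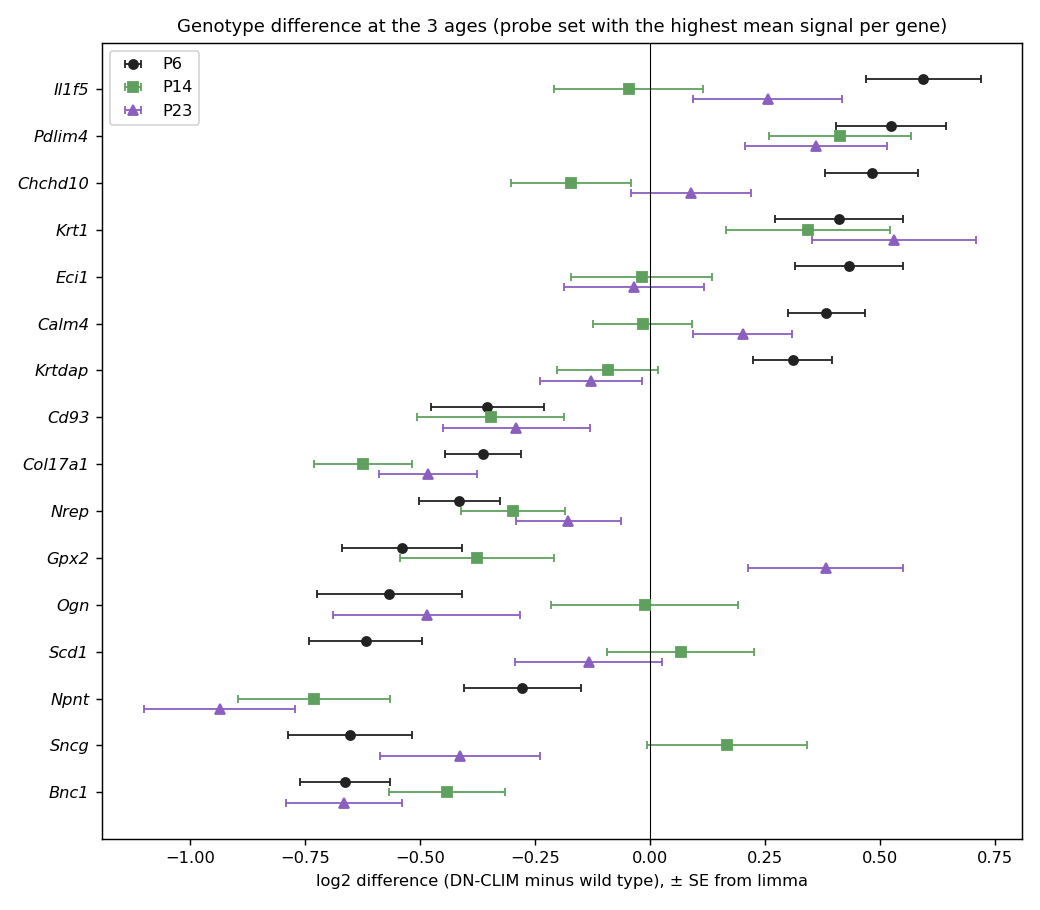
Genotype difference (x axis, log2, DN-CLIM minus WT, with the SE from limma) at P6, P14 and P23 for 16 genes, each on its probe set with the highest mean signal. Bnc1, Col17a1, Npnt, Nrep and Cd93 are below 0 and Pdlim4 and Krt1 above 0 at all 3 ages, while Chchd10, Eci1, Calm4 and Scd1 lie away from 0 at P6 and nearer to it later. For Sncg the probe set shown is not the one that passed.

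All 6 tested erythroid genes were lower in DN-CLIM skin, with 0 past the threshold (median -0.35, range -0.43 to -0.23, where 51.1% of all genes were lower). Alas2, which starts heme synthesis in red cell precursors, was at -0.37 (adjusted p = 0.561), the globin gene Hbb-b2 at -0.32 (0.704) and Car2 at -0.42 (0.62). The others were Hbb-bh1 at -0.59, Slc4a1 at -0.15 and the globin gene Hba-a1 at -0.03. The list's mean level was 9.41 to 9.83 in WT and 8.91 to 9.65 in DN-CLIM, and its median was 0.20 at P14 and 0.31 at P23. Hbb-b2 read 10.86 to 10.92 on DN-CLIM replicates 1 to 3 and 11.89 and 11.62 on replicates 4 and 5, against 10.90 on WT replicate 1 and 11.57 to 11.81 on the others.

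Of 14 endothelial genes 7 were higher and 7 lower (median 0.00060, range -0.03 to 0.05). Cd93, a receptor of endothelial cells, read 8.78 to 9.21 in WT and 8.49 to 8.74 in DN-CLIM (-0.35, adjusted p = 0.506), without overlap, whereas Vwf, von Willebrand factor, was at 0.50 (0.534) and Pecam1 at -0.10. Of 12 smooth muscle and pericyte genes 8 were lower (median -0.09, range -0.15 to 0.01, and 0.01 without DN-CLIM replicate 5). Of 22 macrophage and antigen presentation genes 12 were higher (median 0.02, range -0.03 to 0.09), with H2-Aa at -0.33 (-0.10 without replicate 5). Of 13 interferon response genes 7 were higher and 6 lower (median 0.07, range 0.04 to 0.11). Ifi35 was at 0.76 and Psmb8 at 0.34, whereas Psmb10 was at -0.29, Isg15 at -0.28 and Irf7 at -0.21. Of 5 mast cell genes 3 were lower (median -0.07, range -0.15 to 0.05), and Thy1 (0.05) was the only T cell gene tested.

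Of 27 mitosis genes 18 were lower (median -0.07, range -0.10 to -0.01) and of 26 DNA replication genes 15 (median -0.05, range -0.08 to -0.02), with 0 past the threshold in either list. Cks1b, a cyclin-dependent kinase subunit, read 10.65 to 10.88 in WT and 10.23 to 10.64 in DN-CLIM (-0.25, adjusted p = 0.547), and Cdkn2c, an inhibitor of cyclin D kinases, 10.14 to 10.21 and 9.66 to 10.01 (-0.30, adjusted p = 0.467). Both were without overlap and carry opposite roles in the cycle. Rrm2, a subunit of ribonucleotide reductase, was at -0.49 (adjusted p = 0.534) and Mki67 at -0.19.

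Ribosomal protein genes were higher in 19 of 23 (median 0.10, range 0.08 to 0.13, and 0.01 after quantile normalization), with Rps18 at 0.26 (adjusted p = 0.382) and Rps28 at 0.22 on its brighter probe set and 0.26 on another without overlap. In the immediate early and heat shock list 22 of 29 genes were higher (median 0.08, range 0.07 to 0.12), with the chaperone genes Hspa1b at 0.34 (adjusted p = 0.56) and Hsph1 at -0.32 (0.534).

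The signalling pathways of the follicle showed no shared direction. Of 24 Wnt genes 12 were higher and 12 lower (median -0.02, range -0.09 to 0.03), with Wnt5a at -0.25, Axin2 at 0.06 and Wnt4 at 0.32. Of 20 BMP and activin genes 8 were higher (median -0.02, range -0.05 to 0.0077), with Bmp1 at 0.24 on one probe set and 0.02 on another. Of 15 Notch genes 9 were lower (median -0.08, range -0.13 to -0.04), with the ligand Jag2 at 0.45 (adjusted p = 0.56) and Rbpj at -0.24. Of 6 hedgehog genes 3 were higher (median 0.04, range -0.04 to 0.07), with Gli1 at 0.10 and Ptch1 at 0.15. None of these genes passed.

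The genotype difference at P6 was also tested against that at the later ages in limma. Against the mean of P14 and P23 0 of 6211 probe sets passed, while 342 had an unadjusted p under 0.05 (5.51%). Against P14 alone Sft2d1, a vesicle transport gene, was the only call (0.0161%). It read 11.06 to 11.66 in WT and 10.15 to 11.63 in DN-CLIM at P6 (-0.40, adjusted p = 0.572), and it rose by 1.34 at P14 (adjusted p = 0.0149), so the change in the difference was -1.74 (SE 0.28, adjusted p = 0.023). Against P23 alone Fst, which encodes the activin antagonist follistatin, was the only call (0.0161%). Its difference was 0.25 at P6 (SE 0.14, adjusted p = 0.663) and -1.07 at P23 (0.009), a change of 1.32 (SE 0.22, adjusted p = 0.039). Both calls were lost without single P6 arrays, with adjusted p up to 0.0647 for Sft2d1 without WT replicate 2 and up to 0.0953 for Fst without DN-CLIM replicate 1. Genes with a larger difference at P6 than later, such as Sncg, Chchd10, Atp2a1 and Hibadh, did not pass in these tests. Hibadh gave 0.47 at P6, -0.19 at P14 and -0.31 at P23. Pip4k2c (-0.59, 0.34 and 0.46) did not pass either. Another Pip4k2c probe set read a mean of 8.09 in WT and 7.92 in DN-CLIM at P14, and 8.17 and 8.25 at P23.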

How the data were processed

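Each deposited intensity is a linear signal of 1 probe set on 1 array, made by the authors with MAS5 (version not given) according to the submitters' processing notes. On every array the 2% trimmed mean of the deposited intensities was 500.2 to 500.3, which shows prior scaling, and no further normalization was applied to their log2 values. Per the labels, total RNA was extracted with TRIzol, column-purified and biotin-labelled during in vitro transcription. No detection calls were used, and the number of arrays limits the precision. No 2 arrays held identical values.

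The platform annotation pairs 10833 of the 12422 non-control probe sets with 1 gene, 396 with several and 1193 with none, and 10817 symbols were looked up in a RefSeq table, of which 0 changed. Both promoters were matched by symbol in RefSeq sequences of GRCm38.p6. Probe sets with a mean over 22 arrays at or above the median of means (log2 7.67, a signal of 203) were tested, 6211 in all, 5637 of them with 1 gene. limma 3.58.1 (R 4.3.3, eBayes with a variance trend, 1 mean for each of 6 groups) was used, and the fit was tested on simulated data. Where these were given each group's own spread, the fit over all 22 arrays made a larger share of false calls than its threshold allows, and the fit on the P6 arrays alone did not, so the adjusted p of the P6-only fit is given beside both calls. Figures and promoters used Python 3.11.15.

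For 39 gene lists, counts and medians use the probe set of each gene with the highest mean signal. Named genes were the calls, the 15 higher and 15 lower with the smallest p among non-overlapping probe sets with 1 gene, up to 4 of each list, the CLIM partners, Krt14, Krt5, Krt15, and 5 in each direction from the contrast with later ages. Further list members are given as examples of their list, outside that rule and chosen after their values were seen. The members, lists, rule and tests were chosen with earlier results of these data known. Alternatives were no filter, a 75th percentile filter, quantile normalization, an offset of 50, P6 arrays alone, array weights, no trend and a replicate block. Arrays 4 and 5 were also given their own term, and they and the lower-numbered arrays were each fitted alone. This split followed the replicate numbers, since the titles name no batch. The last alternatives were sex-linked signal as a covariate and each P6 array left out.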

Additional observations from a re-analysis of the deposited data

Results flagged for a closer look

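Among 162 groups of 5 P6 arrays checked, 12 held a value apart from the others of its group by Dixon's test, where chance gives about 1 in 20 groups, or 8.1. DN-CLIM replicate 5 held 4 of these, with Lmo4 at 11.23, Crct1 at 15.13, Nsdhl at 8.82 and Fdps at 9.92. DN-CLIM replicate 4 held Pvalb at 11.86. In WT, replicate 1 held Hbb-b2 at 10.90 and Foxn1 at 9.53, replicate 2 held Npnt at 8.02, Tcf7l2 at 9.84 and Hsph1 at 9.37, and replicate 3 held Rlim at 8.91 and Krtap5-4 at 10.46. The genotype difference differed between ages for Sft2d1 (-1.74, P6 minus P14) and Fst (1.32, P6 minus P23), by the interaction tests in limma given above.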

How the results depend on the processing

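The P6 count of 2 became 5 with no filter on signal, 0 with the 75th percentile filter (which leaves fewer probe sets), 1 with P6 arrays only (Scd1), 4 with the replicate block, 8 within arrays 4 and 5 and 0 with 3 sex classes (chosen after seeing the data). The count within arrays 4 and 5 rests on 2 arrays per genotype, DN-CLIM replicate 5 among them. Leaving out 1 P6 array at a time it was 2 to 5, with 4 without DN-CLIM replicate 1 or 4 and 5 without DN-CLIM replicate 5. With the replicate number as a block, the difference against P14 and that against P23 gave 0 calls each. Replicate numbers correlated at -0.0046 to 0.19 between genotypes, over 0.1 in 2 of 5 pairs, with 2 of 5 WT arrays closest to their own number, so the numbers were not taken to pair the arrays. The contrast with both later ages, with 0 calls, had 0 to 1 without 1 array. The 1 call against P14 became 0 with no variance trend and 0 to 1 without 1 array. The 1 call against P23 became 0 with no filter, with the 75th percentile filter and with either sex covariate, 5 with quantile normalization, 4 with array weights, 3 with no variance trend and 0 to 2 without 1 array. The cause of these moves was not tested.

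Signs turned within arrays 1 to 3 for Dlx3 (0.021), Fdps (0.0060), Lmo2 (-0.017), Rlim (0.30) and Ssbp2 (-0.11), within arrays 4 and 5 for Hbb-b2 (0.00065), Lmo1 (0.14) and Lmo4 (0.021), with array weights for Lmo2 (-0.10) and Rlim (0.13), and with quantile normalization for Rlim (0.0039). Without 1 array they ran from -0.16 to 0.095 for Lmo1, -0.10 to 0.12 for Lmo2, -0.16 to 0.087 for Rlim and -0.060 to 0.059 for Ssbp2. Of 39 list medians 15 kept their sign under all 23 alternatives, the others turning in 1 to 8 (desmosome 8, endothelial and macrophage 7, basal layer, CLIM partners, mast cell, melanocyte and T cell 6). Dim probe sets limit what could be seen of basal keratins and LIM-homeodomain genes.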
